A study of Mus musculus with 2 samples.

Results

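The C-type lectin receptor genes of the Dectin gene cluster were described in CD45+ immune cells of the mouse dorsal root ganglion (DRG). The list held 8 genes (Clec4a1, Clec4a2, Clec4a3, Clec4d, Clec4e, Clec4n, Clec7a and Clec12a), of which 7 had a row among the 16819 genes of the deposited matrix, and Clec7a was not analysed here. Live (DAPI-) CD45+ cells were sorted from pooled cervical, thoracic and lumbar ganglia of wild-type, untreated BALB/cAnNRj mice after perfusion and enzymatic digestion. Cells of each animal were tagged with a hashtag antibody (an oligonucleotide-tagged antibody that marks the animal of origin) and run together in a single droplet lane. The second deposited sample holds hashtag counts and gene counts of a larger set of barcodes that includes these cells. The smaller deposited matrix held the cells of 3 male mice (481, 772 and 1415 cells in mouse 1, 2 and 3) with 23403638 unique molecular identifiers (UMIs, counts of captured RNA molecules). Cells of 3 female mice (1073 cells), present in the larger matrix of 4395 barcodes, were kept apart as a second set of animals.

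C-type lectin receptors are surface proteins of myeloid cells that bind sugars and lipids of microbes and damaged cells. Dectin-1 (Clec7a) binds fungal beta-glucan, Dectin-2 (Clec4n) binds mannan, and Mincle (Clec4e) with its partner MCL (Clec4d) binds mycobacterial glycolipids; they pass their signal through the kinase Syk, in the case of Dectin-2 and Mincle by way of the Fc receptor gamma chain (Fcer1g), and on to Card9, Bcl10 and Malt1. The DCIR receptors (Clec4a1, Clec4a2 and Clec4a3) are their close relatives, and DCIR1 (Clec4a2) as well as MICL (Clec12a) carry an inhibitory motif that recruits phosphatases such as Ptpn6.

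All members lie on chromosome 6 of GRCm38, where 6 of them, all named Clec4, span 368.0 kb (122921848 to 123289870). Their order from Clec4a1 (122921848 to 122934619, forward strand) was Clec4a3, Clec4a2, Clec4n (123229843 to 123247021, forward), Clec4d (123262111 to 123275265, forward) and Clec4e (123281789 to 123289870, reverse strand). Clec12a (129342691 to 129365303, forward) stood 6.05 Mb further on. The assay counts RNA at the 3′ end, and in the last 300 bases of the members' transcripts the longest run of identical bases between any of them was 14 bases. Promoter sequences from RefSeq (GRCm38.p6, 250 bases before to 50 after a transcript start) matched 6 of the 7 analysed members, and not Clec4n. The start in RefSeq is not always that of the gene as given above: the windows of Clec12a and Clec4a2 (123122440 to 123122739) lie inside the span of their genes. The sequences of Clec4d and Clec4e are shown because both genes were highest in the same neutrophils, and that of Clec12a because it was the most widely detected across classes. In capitals are the matches to TTNNGCAA, a form of the motif of C/EBP factors, searched on both strands and held by 10.8% of the 32851 promoters of the table and by 2 of the 6 members (Clec4e and Clec12a). The other motif searched, AGGAAGT, a form of the motif of the myeloid factor PU.1, was in 9.35% of all promoters and in 0 of the 6.
Clec4d promoter (chr6:123261857-123262156, forward strand): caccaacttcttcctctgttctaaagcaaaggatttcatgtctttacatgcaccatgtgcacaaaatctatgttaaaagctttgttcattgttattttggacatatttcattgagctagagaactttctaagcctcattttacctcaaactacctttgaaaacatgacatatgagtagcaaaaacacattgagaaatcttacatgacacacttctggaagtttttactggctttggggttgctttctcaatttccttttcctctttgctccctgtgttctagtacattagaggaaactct
Clec4e promoter (chr6:123289822-123290121, reverse strand): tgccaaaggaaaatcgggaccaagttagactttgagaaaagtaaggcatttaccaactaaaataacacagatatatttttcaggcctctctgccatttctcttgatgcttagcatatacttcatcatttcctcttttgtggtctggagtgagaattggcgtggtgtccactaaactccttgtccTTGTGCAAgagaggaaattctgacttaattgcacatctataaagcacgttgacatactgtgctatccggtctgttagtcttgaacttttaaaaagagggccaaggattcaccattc
Clec12a promoter (chr6:129349994-129350293, forward strand): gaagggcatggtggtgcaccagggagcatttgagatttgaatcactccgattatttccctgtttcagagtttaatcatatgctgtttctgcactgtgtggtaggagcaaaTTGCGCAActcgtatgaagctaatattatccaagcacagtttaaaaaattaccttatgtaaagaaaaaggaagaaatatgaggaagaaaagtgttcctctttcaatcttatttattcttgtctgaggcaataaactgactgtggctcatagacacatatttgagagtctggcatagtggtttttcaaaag
A match describes letters in these windows, and binding was not measured.

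Cells were divided into classes without use of any member gene. Macrophages (1480 cells) had at least 0.5% of their UMIs in the complement genes C1qa, C1qb and C1qc, and neutrophils (560 cells) at least 5% in the calprotectin genes S100a8 and S100a9. Monocytes (160 cells), dendritic cells (DCs, 88 cells) and lymphocytes (300 cells, B cells with T, NK and innate lymphocytes) took the marker list with the highest share, and 80 cells entered no class. The C1q genes held 1.69% ± 0.193 (SD, n = 3 mice) of the UMIs in macrophages and 0.0146% to 0.0249% on average in the other classes, and S100a8 with S100a9 held 34.1% ± 1.31 in neutrophils. The cuts on these genes set such differences. Of genes not used for the classes, Csf1r, Cx3cr1, Mrc1 and Adgre1 together held 0.314% ± 0.0224 in macrophages and 0.00387% to 0.0344% in the other classes. Csf3r, Retnlg, Ly6g and Cxcr2 held 1.58% ± 0.345 in neutrophils and 0.00459% to 0.00892% in the others. Median UMIs per cell were 8609 in macrophages, 10866.5 in monocytes, 13873.5 in DCs, 6582 in neutrophils and 3867.5 in lymphocytes. Levels are given as CPM, a gene's UMIs (counts) per 1000000 UMIs summed over a mouse's cells of a class, always in the order mouse 1, 2 and 3. Differences are log2 fold changes fitted by edgeR's quasi-likelihood test on these sums with TMM scaling, with Benjamini-Hochberg adjusted p taken at 0.05 over all genes tested. The main fits had no term for the mouse, although the groups compared come from the same mice.

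The members were not all distributed alike over the myeloid cells, and lymphocytes held 1.18 to 10.0 CPM of them on average. Clec4n was highest in macrophages, Clec4d and Clec4e in neutrophils and then monocytes, Clec4a1 and Clec4a3 in macrophages and monocytes alike, and Clec4a2 and Clec12a in macrophages, monocytes and neutrophils, with Clec12a also in DCs. Against macrophages, 2 members were higher and 3 lower in monocytes (of all 7601 genes tested 38.9% were called, 18.8% higher and 20.1% lower), 4 higher and 3 lower in neutrophils (66.8%, 31.8% and 35.0%) and 0 higher and 4 lower in DCs (30.7%, 14.6% and 16.1%). In neutrophils against monocytes 4 members were higher and 3 lower (53.0%, 26.6% and 26.3%). The median log2 difference of the 7 members was -0.15 in monocytes, 0.67 in neutrophils and -1.51 in DCs against macrophages, and over all genes -0.00, -0.09 and -0.07. With library sizes in place of TMM factors 2 members were higher and 1 lower in monocytes, 2 and 3 in neutrophils and 0 and 4 in DCs, against macrophages, and 3 and 3 in neutrophils against monocytes. Of all 7601 genes 2733 were then higher and 946 lower in monocytes, 1364 and 4289 in neutrophils and 1159 and 1160 in DCs. In neutrophils against monocytes 631 were higher and 4813 lower.

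**Figure D1:**
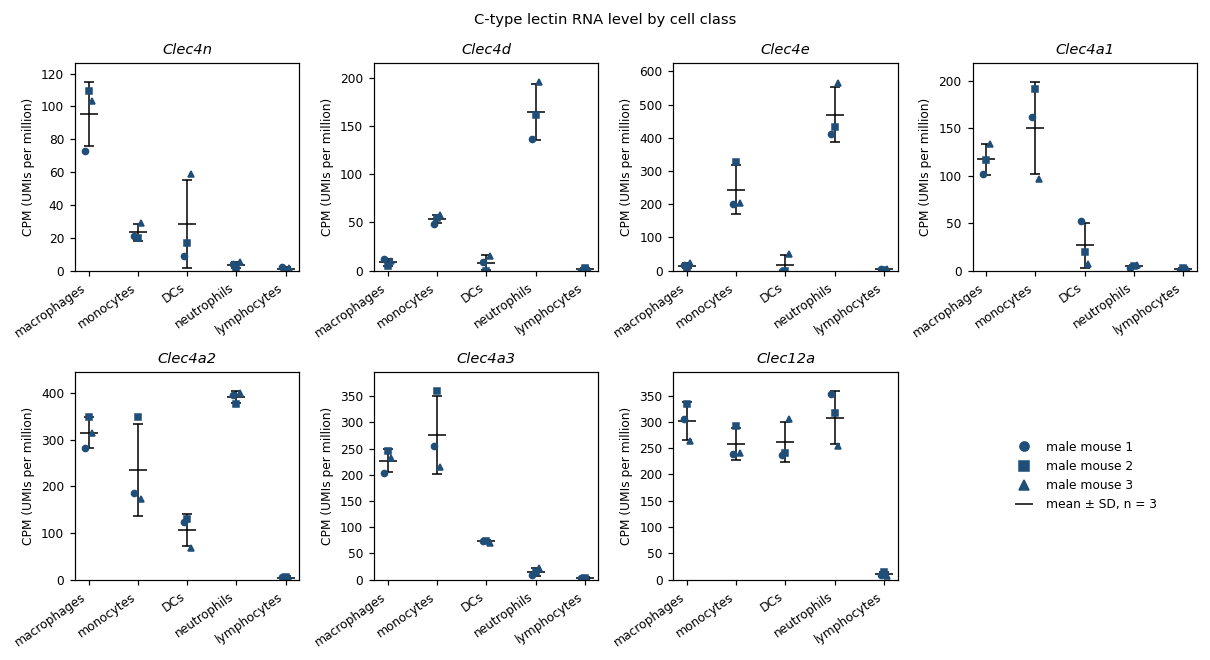
Level of each C-type lectin gene (CPM; linear axes that start at 0 and differ between panels) in 5 cell classes of the 3 male mice; points are mice and bars the mean ± SD. Clec4n stands at 73.1 to 109 CPM in macrophages, Clec4d and Clec4e are highest in neutrophils, and all 7 genes are near 0 in lymphocytes.

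Clec4n, which encodes Dectin-2, was highest in macrophages. Its level was 73.1, 109 and 103 CPM in the macrophages of the 3 mice, and 21.1, 19.5 and 29.1 CPM in their monocytes. Neutrophils held 4.15, 1.52 and 5.04 CPM, and lymphocytes 1.99, 0 and 1.56 CPM. The ranges of macrophages and of each of the other classes did not overlap. Clec4n was lower than in macrophages both in monocytes (log2 difference -2.31, SE 0.32, adjusted p = 3.97e-06 by edgeR) and in neutrophils (-3.78, SE 0.37, adjusted p = 8.01e-09), in 3 of 3 mice each. Between neutrophils and monocytes the difference was -1.47 (SE 0.51, adjusted p = 0.0189), and -1.70 with an adjusted p of 0.0584 without mouse 3, in a range from 9.12e-05 to 0.0584. Without TMM factors the differences of neutrophils were -4.48 from macrophages and -2.55 from monocytes. A UMI of Clec4n was found in 34.4% ± 3.14 of macrophages and 0.634% ± 0.584 of lymphocytes (SD, n = 3). With cells thinned to 2000 UMIs, which left out 98 cells of all classes with fewer, it was found in 13.5% ± 1.47 and 0.271% ± 0.469. In B cells (median 3395 UMIs) it was in 0 of 162 cells, which allows up to 1.85% of cells with a UMI and sets no limit on cells that express the gene.

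Macrophages were then divided by Fcrls, a marker of resident macrophages and microglia, and Ccr2, the chemokine receptor of monocyte-derived cells, with a gate of 1 UMI. Of the 1480 macrophages, 675 had Fcrls only, 582 both, 156 Ccr2 only and 67 neither. Clec4n followed this division. It stood at 126, 182 and 179.8 CPM in Fcrls-only macrophages, at 30.1, 44.3 and 57.7 CPM in those with both, and at 31.7, 11.25 and 10.96 CPM in Ccr2-only macrophages. Every Fcrls-only value was above every value of the other groups, whereas the groups with both and with Ccr2 only overlapped in mouse 1. The log2 difference of Ccr2-only minus Fcrls-only macrophages was -3.43 (SE 0.32, adjusted p = 2.19e-06, edgeR, lower in 3 of 3 mice). It rested on 18 UMIs of Clec4n in Ccr2-only and 1028 in Fcrls-only cells. Of the 6 members tested in this comparison, 1 was called lower and 0 higher, against 3.85% and 5.17% of all 6289 genes (9.02% in both directions). This main fit ignores that the groups come from the same mice. With the mouse as a block, which pairs the groups of an animal, Clec4a1 was also called lower and Clec12a higher. Of all 6289 genes 474 were then higher and 377 lower. Thinned to 2000 UMIs before the gate, which moves cells with few gate UMIs into other groups, the log2 difference was -1.73 (adjusted p = 0.000322, in a range of 6.45e-36 to 0.000322 over 14 alternatives). Immediate early genes that rise on cell handling moved with the same groups: Fos, Jun, Atf3 and Rhob together took 0.785% ± 0.275 of UMIs in Fcrls-only and 0.351% ± 0.00222 in Ccr2-only macrophages (SD, n = 3), and their part in the Clec4n difference was not tested.

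Clec4n also varied with the number of Fcrls UMIs. Macrophages with 0 Fcrls UMIs (223 cells) held 51.1, 14.7 and 10.5 CPM of Clec4n, and those with 1 to 4 (487 cells) held 24.4, 46.0 and 57.2 CPM. With 5 to 9 UMIs (393 cells) the values were 45.5, 159 and 94.2 CPM, and with 10 or more (377 cells) 154, 216 and 168 CPM. Only the bin of 10 or more lay apart from those with 0 and with 1 to 4, and the other neighbouring bins overlapped. Median UMIs per cell were 7813 in the lowest and 10260 in the highest bin. By Ccr2 UMIs, Clec4n was highest in macrophages with 0 (155 ± 28.2 CPM, mean and SD over 3 mice), at 73.1 ± 14.8 with 1, at 35.8 ± 14.6 with 2 to 4 and at 30.2 ± 7.38 CPM with 5 or more. The bins with 2 to 4 and 5 or more overlapped, and mouse 1 gave 7 cells to the bin with 1 UMI. These bins are a description without a test.

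**Figure D2:**
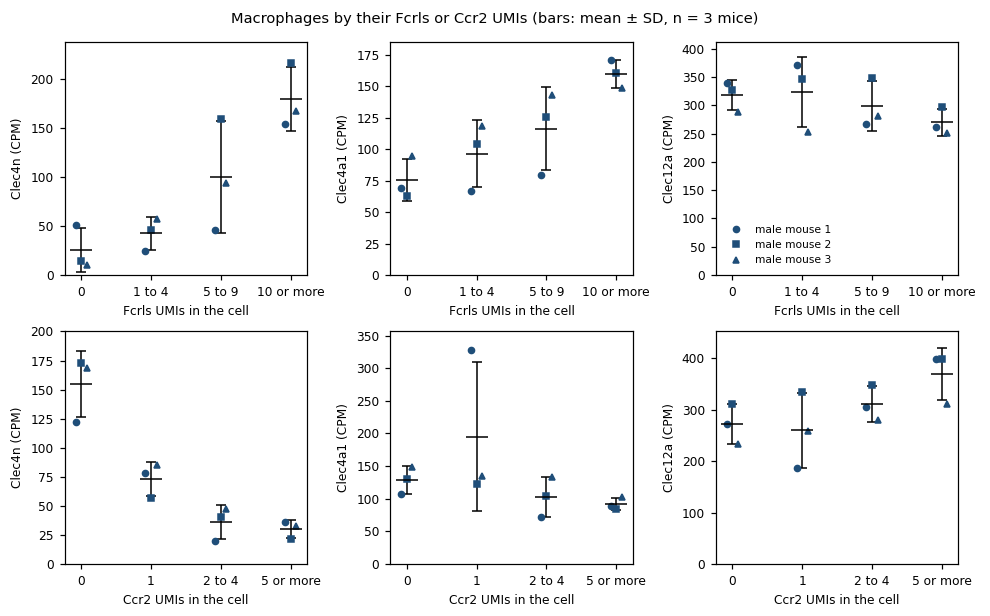
CPM of Clec4n, Clec4a1 and Clec12a (linear axes from 0) in macrophages binned by their Fcrls UMIs (upper row) or Ccr2 UMIs (lower row); points are the 3 male mice and bars the mean ± SD. Clec4n goes from 25.4 to 179.3 CPM over the Fcrls bins, Clec4a1 from 75.5 to 159.9 CPM, and Clec12a stays between 270.1 and 324 CPM. Over the Ccr2 bins Clec12a is at 272.0, 259.8, 311.5 and 369.6 CPM. Clec4a1 is there at 128.7, 195.3, 102.9 and 91.7 CPM, with 7 cells of mouse 1 in the bin of 1 UMI.

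Clec4e and Clec4d, the neighbouring genes of Mincle and its partner MCL, were instead highest in neutrophils, followed by monocytes. Clec4e stood at 411, 433 and 566 CPM in neutrophils and at 200.1, 328 and 204 CPM in monocytes. Macrophages held 15.7, 6.19 and 22.2 CPM and DCs 0, 0 and 50.05 CPM of Clec4e. Neutrophils and monocytes thus stood apart from macrophages in every mouse, and all 29 UMIs of Clec4e in DCs came from mouse 3 (DCs against macrophages, adjusted p = 0.54 by edgeR). The log2 difference from macrophages was 5.63 in neutrophils (SE 0.41, adjusted p = 8.3e-11, edgeR) and 3.57 in monocytes (SE 0.41, adjusted p = 3.68e-07), which was 4.33 without mouse 3. Neutrophils were above monocytes by 2.05 (SE 0.36, adjusted p = 5.66e-05 by edgeR), but by DESeq2 the adjusted p was 0.0788, the highest of 12 alternatives that began at 6.13e-26. Without TMM factors the difference was 1.0 from monocytes and 4.92 from macrophages.

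Clec4d was at 137, 161 and 195 CPM in neutrophils, 48.4, 54.7 and 57.3 CPM in monocytes and 11.5, 4.38 and 9.61 CPM in macrophages. The 3 classes did not overlap, and DCs, at 8.77, 0 and 15.5 CPM, overlapped macrophages (adjusted p = 0.878 by edgeR). Monocytes were above macrophages by a log2 difference of 2.35 (SE 0.34, adjusted p = 7.17e-06, edgeR) and neutrophils by 5.02 (SE 0.28, adjusted p = 8.53e-13), and neutrophils above monocytes by 2.67 (SE 0.27, adjusted p = 4.87e-08). Without TMM factors these differences of neutrophils were 4.31 and 1.61. Within macrophages, Clec4d had 60 UMIs in Fcrls-only and 7 in Ccr2-only cells and was left out by the filter on low counts, and Clec4e (9.76 ± 11.7 and 11.4 ± 6.27 CPM, SD, n = 3) gave an adjusted p of 0.946. Free neutrophil RNA was gauged from S100a8 and S100a9. Scaled to the level of these genes in macrophages, RNA of all neutrophils would carry 0.334 CPM of Clec4d and 0.951 CPM of Clec4e. The measured levels were 8.49 and 14.7 CPM. RNA of the Camp-low neutrophils described below, which held more of both genes per UMI of S100a8 and S100a9, would carry more. The part of free RNA in the measured levels was not tested. A UMI of Clec4e was in 7.53% ± 3.77 of macrophages and 1.94% ± 0.594 of lymphocytes, and after thinning in 3.20% ± 1.26 and 0.542% ± 0.939.

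Neutrophils were divided by the secondary granule genes Camp, Ltf and Ngp, which are made before a neutrophil matures, at 1% of UMIs. This gave 279 Camp-high cells (median 11505 UMIs) and 281 Camp-low cells (median 3556 UMIs), and the comparison was added after the levels by class had been seen. Both genes took a far higher part of the UMIs in Camp-low cells. In total the Camp-low cells held 731 UMIs of Clec4d and 1447 of Clec4e, and the Camp-high cells 121 and 1017, so both genes differed less per cell than in CPM. Clec4d stood at 566, 634 and 618 CPM in Camp-low and 29.1, 19.7 and 38.3 CPM in Camp-high neutrophils. Clec4e stood at 1235, 1308 and 1179 CPM and at 204, 172 and 339 CPM. The groups were apart for both genes, with log2 differences of 3.96 for Clec4d (SE 0.21, adjusted p = 3.96e-08, edgeR) and 2.04 for Clec4e (SE 0.23, adjusted p = 1.32e-05). Of the 5 members tested 3 were called higher and 1 lower, where 22.8% and 19.9% of 4335 genes were (42.7% in both directions). The third that was higher was Clec4a3 (43.8 ± 24.6 against 5.52 ± 3.97 CPM, log2 difference 3.20, SE 0.48, adjusted p = 0.000123), and the one that was lower was Clec4a2 (300.5 ± 13.3 against 418 ± 15.8 CPM, -0.75, SE 0.15, adjusted p = 0.00118). The macrophage genes C1qa, C1qb and C1qc took 0.0512% ± 0.051 of UMIs in Camp-low and 0.0154% ± 0.0125 in Camp-high cells, and their part in the Clec4a3 difference was not tested. Clec12a did not pass the test (290 ± 145 against 317 ± 28.8 CPM, log2 difference -0.55, adjusted p = 0.154, in a range from 0.0407 without the filter to 0.97). In Camp-low cells it was at 122.8 CPM in mouse 3 and at 363.5 and 383 CPM in the others. Clec4a1 (19 and 5 UMIs) and Clec4n (16 and 5 UMIs) were left out by the filter on low counts. With cells thinned to 2000 UMIs, a UMI of Clec4d was in 67.3% ± 5.27 of Camp-low and 7.14% ± 3.20 of Camp-high cells, and one of Clec4e in 77.6% ± 3.19 and 35.1% ± 7.11. Cells with fewer UMIs were left out of these shares, 31 of the Camp-low and 0 of the Camp-high cells.

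**Figure D3:**
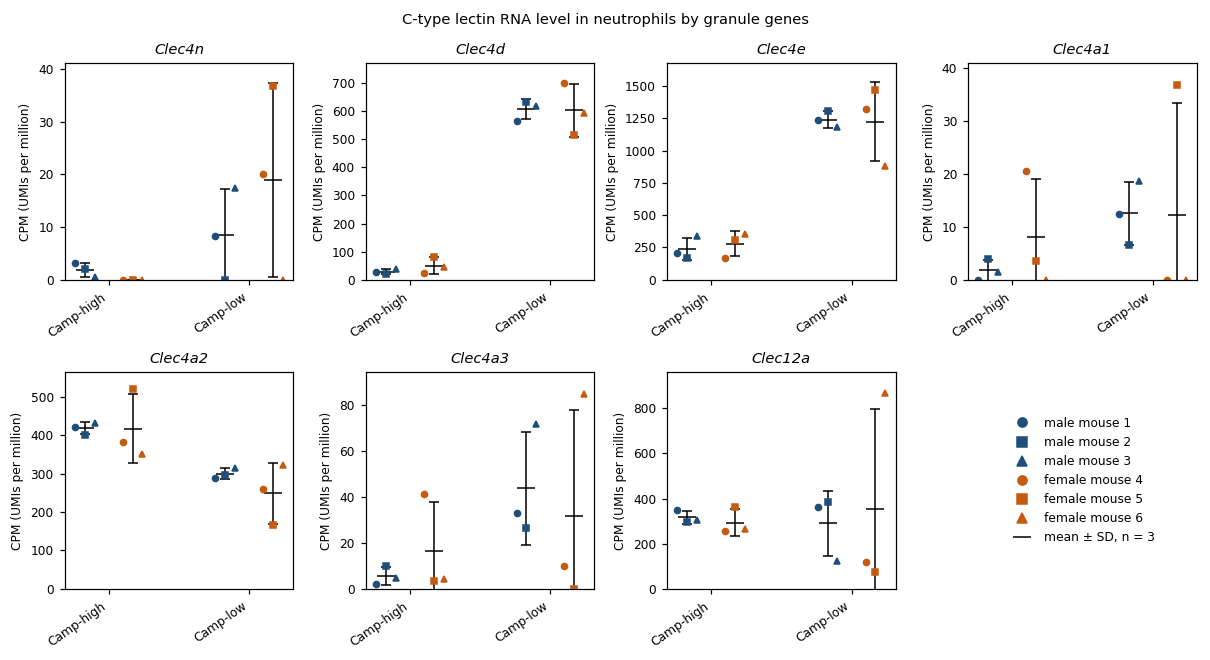
CPM of each C-type lectin gene (linear axes from 0) in Camp-high and Camp-low neutrophils; blue points are the 3 male and orange points the 3 female mice, bars the mean ± SD of each sex. Clec4d and Clec4e lie higher in the Camp-low cells of all 6 mice (1240 ± 64.7 against 238 ± 88.6 CPM for Clec4e in males), and Clec4a2 lies lower in the Camp-low cells of each.

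The DCIR genes Clec4a1 and Clec4a3 were shared by macrophages and monocytes and were low in neutrophils. Clec4a1 was at 101.5, 117 and 133 CPM in macrophages, 162, 191 and 97.0 CPM in monocytes and 2.49, 4.56 and 6.05 CPM in neutrophils. Clec4a3 was at 203, 246 and 232 CPM in macrophages, 255, 359 and 215 CPM in monocytes and 8.30, 13.7 and 22.9 CPM in neutrophils. Macrophages and monocytes overlapped for both, with log2 differences of -0.13 (SE 0.25, adjusted p = 0.738, edgeR) for Clec4a1 and -0.15 (SE 0.21, adjusted p = 0.636) for Clec4a3. Over 12 alternatives these differences ran from -1.0 to 0.27 and from -0.51 to 0.23. In the female mice Clec4a1 was called lower in monocytes (-1.0, SE 0.36, adjusted p = 0.0317, edgeR). Neutrophils were below macrophages by -3.88 (SE 0.37, adjusted p = 4.97e-09) for Clec4a1 and -3.04 (SE 0.26, adjusted p = 1.06e-09) for Clec4a3, which were -4.50 and -3.89 without mouse 3. They were below monocytes as well, by -3.75 (SE 0.40, adjusted p = 7.41e-08) and -2.90 (SE 0.27, adjusted p = 1.49e-08), which were -4.77 and -3.91 without mouse 3. Without TMM factors the differences from macrophages were -4.59 and -3.76, and those from monocytes -4.83 and -3.98.

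Clec4a2, the DCIR with the inhibitory motif, differed from both in being present in neutrophils. It stood at 396, 377 and 399.5 CPM in neutrophils, 282, 348 and 314 CPM in macrophages and 185, 347.5 and 172 CPM in monocytes. Neutrophils lay above macrophages and above monocytes, and the value of monocytes of mouse 2 reached the macrophage range. Neutrophils exceeded monocytes by a log2 difference of 1.85 (SE 0.22, adjusted p = 3.94e-07, edgeR), which was 0.81 without TMM factors (adjusted p = 0.00211, the highest in a range from 9.39e-21). The fitted difference from macrophages was 0.97 in neutrophils (SE 0.20, adjusted p = 0.000184, edgeR) and -0.88 in monocytes (SE 0.21, adjusted p = 0.00237). These also depended on the TMM factors: without them they were 0.30 (adjusted p = 0.168) and -0.51 (adjusted p = 0.0519), the highest p of the 12 alternatives of each, which began at 3.75e-07 and 1.07e-05. Without these factors the median of all genes moved from -0.088 to -0.784 in neutrophils and from -0.004 to 0.361 in monocytes.

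Within macrophages none of the 3 DCIR genes passed the main test between Ccr2-only and Fcrls-only cells, which has no term for the mouse. Clec4a1 was at 108, 135 and 156 CPM in Fcrls-only and 58.2, 64.7 and 111 CPM in Ccr2-only macrophages (log2 difference -0.56, SE 0.19, adjusted p = 0.0911, edgeR). With the mouse as a replicate block, which pairs the groups of an animal, its adjusted p was 0.0155, and without the filter on low counts 0.0183, in a range from 0.0155 to 0.951 over 14 alternatives. Clec4a2 (336 ± 26.4 against 249 ± 33.1 CPM) had a difference of -0.30 (SE 0.14, adjusted p = 0.239) and Clec4a3 (255 ± 15.9 against 170 ± 71.1 CPM) of -0.38 (SE 0.19, adjusted p = 0.268). All 3 genes were lower in Ccr2-only cells in 3 of 3 mice, and the values of Clec4a2 and Clec4a3 did not overlap between the groups. These CPM values carry no TMM factors, and without such factors the median log2 difference of all 6289 genes was -0.132 (234 called higher and 335 lower). How many of all genes were lower in every mouse or did not overlap was not counted.

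Clec12a, the inhibitory receptor MICL, was the most evenly spread over myeloid classes. Its level was 306, 335 and 264 CPM in macrophages, 238, 293 and 242 CPM in monocytes and 237, 241.5 and 305.5 CPM in DCs. Neutrophils held 353, 317.5 and 254 CPM and lymphocytes 7.98, 14.3 and 7.79 CPM. All 4 myeloid classes overlapped and all stood above lymphocytes, of which B cells held 17.9 ± 11.1 CPM and T, NK and innate lymphocytes 2.52 ± 2.22 CPM (SD, n = 3). The calls for Clec12a depended on the TMM factors. The fitted difference of neutrophils from macrophages was 0.67 (SE 0.15, adjusted p = 0.000407, edgeR), and without TMM factors 0.01 (adjusted p = 0.943, in a range from 6.96e-05 to 0.943 over 12 alternatives). That of neutrophils from monocytes was 1.29 (SE 0.16, adjusted p = 7.4e-07), and without TMM factors 0.26 (adjusted p = 0.151, the highest in a range from 2.64e-12). That of monocytes from macrophages was -0.62 (SE 0.16, adjusted p = 0.00304), and without TMM factors -0.25 (adjusted p = 0.207), with a cut of 10% for neutrophils -0.26 (adjusted p = 0.263), in a range from 0.00292 to 0.263.

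Among macrophages the mean of Clec12a was lower in Fcrls-only than in Ccr2-only cells. It was at 281, 309.6 and 235 CPM in Fcrls-only, 317, 370.4 and 284 CPM in those with both and 402, 326 and 311 CPM in Ccr2-only macrophages. The 67 macrophages with neither gene held 247.7 ± 70.4 CPM of Clec12a and 42.6 ± 45.4 CPM of Clec4n (SD, n = 3). Each Ccr2-only value was above each Fcrls-only value. The log2 difference was 0.41 (SE 0.16, adjusted p = 0.147, edgeR, higher in 3 of 3 mice). With the mouse as a replicate block it was 0.43 (adjusted p = 0.00619), in a range from 0.00176 to 0.838 over 14 alternatives.

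**Figure D4:**
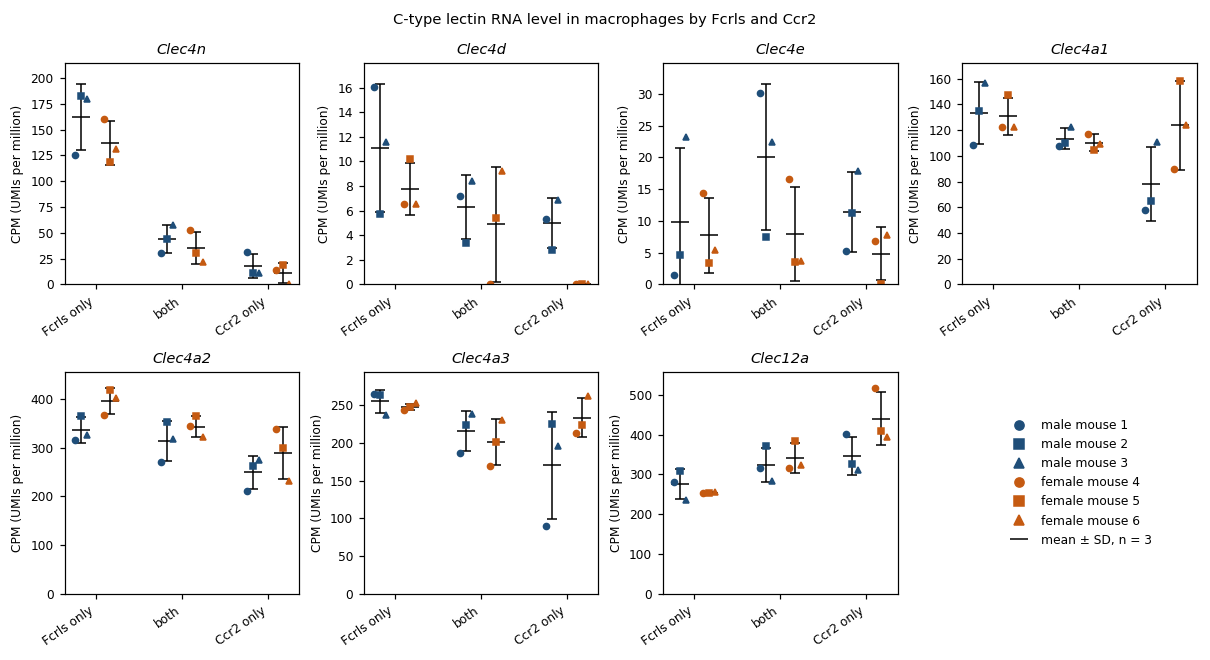
CPM of each C-type lectin gene (linear axes from 0) in macrophages with Fcrls only, with both genes and with Ccr2 only; blue points are the 3 male and orange points the 3 female mice, bars the mean ± SD of each sex. Clec4n drops from 163 ± 32.0 to 17.98 ± 11.9 CPM in males and from 137 ± 21.2 to 10.8 ± 9.67 CPM in females, while Clec12a goes from 254 ± 1.92 to 440.3 ± 66.4 CPM in females.

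In the cells of the 3 female mice Clec4n and Clec12a were found in the same order. Clec4n was at 160.2, 119 and 131 CPM in Fcrls-only and 13.8, 18.6 and 0 CPM in Ccr2-only macrophages of mouse 4, 5 and 6, with a log2 difference of -3.64 (SE 0.55, adjusted p = 0.000113, edgeR). The female Ccr2-only group was small, with 19, 17 and 19 cells, and 3 of its 55 cells had a UMI of Clec4n. Clec12a was at 252, 253 and 256 CPM against 516, 410.2 and 394 CPM, with a difference of 0.85 (SE 0.16, adjusted p = 0.00176). Both sets of groups were apart, and how many of all genes were apart was not counted. Of all 5650 genes tested in females 160 were called higher and 151 lower. For Clec4a1 the female values overlapped (122, 148 and 122.5 against 89.5, 158.5 and 124 CPM, adjusted p = 0.951). The female difference was -0.05 for Clec4a3 (SE 0.18, adjusted p = 0.941, edgeR) and -0.40 for Clec4a2 (SE 0.17, adjusted p = 0.216). The difference between the sexes was itself tested as an interaction, in an edgeR fit with no term for the mouse. In it 0 of 6781 genes were called (303 at an unadjusted p under 0.05). The estimate was -0.27 for Clec4n (SE 0.96), 0.40 for Clec12a (SE 0.24, adjusted p = 0.995) and 0.46 for Clec4a1 (SE 0.31). The absence of calls does not show that the sexes were alike.

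In DCs of the male mice Clec12a was not called different from macrophages, and 4 other members were called lower. Clec4a1 was at 52.6, 19.9 and 6.90 CPM in DCs, a log2 difference of -2.56 from macrophages (SE 0.39, adjusted p = 1.8e-05, edgeR), which was -3.36 without mouse 1 and -1.83 without mouse 3. Clec4a2 (107 ± 34.5 CPM) and Clec4a3 (73.0 ± 2.01 CPM) were lower by -1.68 (SE 0.24, adjusted p = 1.16e-05) and -1.69 (SE 0.26, adjusted p = 2.42e-05). Clec4n was at 8.77, 17.0 and 58.7 CPM, with a difference of -1.51 (SE 0.33, adjusted p = 0.00105), which was -2.85 without mouse 3 and, with an adjusted p of 0.0503, -1.07 without mouse 2, in a range from 7.59e-08 to 0.0503. For Clec12a the difference was -0.23 (SE 0.16, adjusted p = 0.35), and -0.53 without mouse 3 (adjusted p = 0.0451, in a range from 0.0169 to 0.968). In the female mice Clec12a was lower in DCs by -0.80 (SE 0.25, adjusted p = 0.0169, edgeR).

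The DCs were of several kinds. With a UMI of Xcr1, the receptor of type 1 DCs, and none of Cd209a there were 38 cells, and with Cd209a and no Xcr1 there were 36, from 4 to 24 cells in a mouse. In the Xcr1 cells Clec4a1, Clec4d and Clec4n were in 0 of 38 cells, which allows up to 7.89% of cells with a UMI. Clec12a stood there at 238, 319 and 313 CPM, and in Cd209a cells at 163, 67.5 and 184 CPM. Clec4a3 was at 0, 8.62 and 0 CPM in Xcr1 cells against 132, 153.5 and 199 CPM in Cd209a cells, and Clec4a2 at 28.0, 8.62 and 15.3 CPM against 202, 276 and 169 CPM. Values of Clec12a, Clec4a2 and Clec4a3 did not overlap between these small groups, which were not tested. How many of all genes did not overlap between them was not counted, so this is no result about the members. The other 14 DCs held Clec12a at 573, 506 and 724 CPM in mouse 1, 2 and 3, and 1 of these cells, from mouse 3, held 18 of the 29 UMIs of Clec4e in DCs. Cd209a cells also held more UMIs of the C1q genes, at 0.0323% ± 0.0149 of UMIs against 0.00687% ± 0.00257 in Xcr1 cells. A UMI of Fcrls was in 56.9% ± 6.36 of Cd209a cells against 4.72% ± 5.02 of Xcr1 cells. The source of these UMIs was not tested, nor was the part of macrophage RNA in the lectin values.

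**Figure D5:**
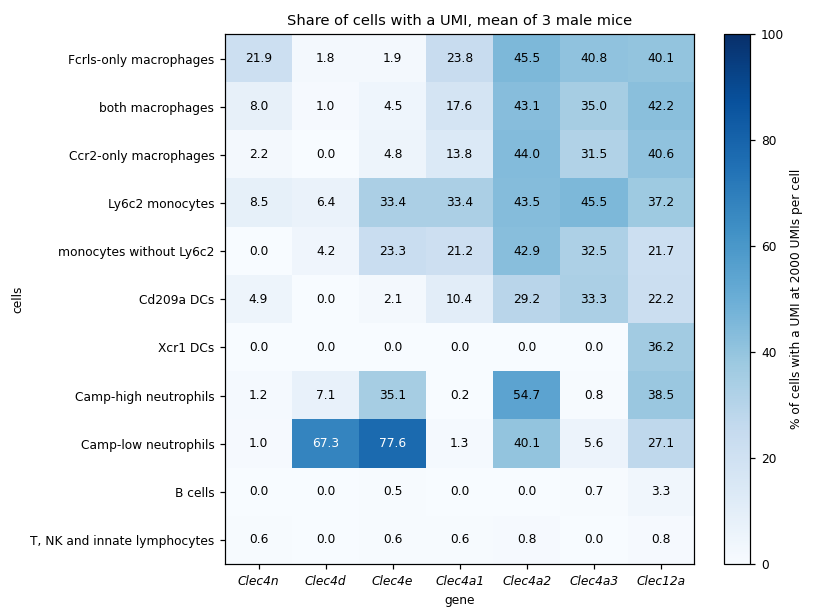
Share of cells (%) with at least 1 UMI of each C-type lectin gene after cells were thinned to 2000 UMIs (cells with fewer are left out), as the mean of 3 male mice. Rows are groups of cells and darker blue is a higher share. Clec4d and Clec4e peak in Camp-low neutrophils (67.3% and 77.6%), Clec4n in Fcrls-only macrophages (21.9%), and Xcr1 DCs have UMIs of Clec12a alone at this depth (36.2%).

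UMIs of more than 1 member were found in single cells. Whether this went beyond the joint detection that separate detection of each gene gives was not tested. At 2000 UMIs per cell, 84.0% ± 2.88 of macrophages had a UMI of at least 1 member and 51.6% ± 1.93 of at least 2 (SD, n = 3 mice), and in neutrophils 90.5% ± 3.05 and 57.2% ± 4.90. In monocytes the shares were 85.8% ± 5.32 and 63.3% ± 7.82, and in DCs 52.8% ± 6.94 and 19.7% ± 9.86. In lymphocytes 4.03% ± 2.40 had a UMI of 1 member and 0% of 2. Fcrls-only macrophages had 1.76 ± 0.0224 members per cell and Ccr2-only macrophages 1.37 ± 0.00675. Camp-low neutrophils had 2.20 ± 0.156 and Camp-high neutrophils 1.38 ± 0.0985.

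Of the 20 genes listed for signalling downstream of these receptors, 16 were tested in the comparison of macrophages. In Ccr2-only cells 3 were higher and 0 lower, with a list median of 0.31 (all genes -0.02). Of all 6289 genes tested 5.17% were higher and 3.85% lower. Malt1, the paracaspase of the Card9 complex, was higher by 1.40 (log2 scale, SE 0.39, adjusted p = 0.0286, edgeR), and the cytokine gene Il1b by 0.43 (SE 0.11, adjusted p = 0.0194). Fcer1g, the adaptor of Dectin-2 and Mincle, stood at 2590 ± 185 CPM in Ccr2-only and 2670 ± 175 CPM in Fcrls-only macrophages (adjusted p = 0.752), and Syk at 94.4 ± 33.1 and 82.2 ± 10.6 CPM (adjusted p = 0.369). Against macrophages, 6 of the 18 listed genes tested were higher and 5 lower in monocytes, 11 higher and 3 lower in neutrophils, and 3 higher and 5 lower in DCs, where 38.9%, 66.8% and 30.7% of all genes were called. Without TMM factors the counts were 10 and 4, 4 and 6, and 3 and 4. Of all 7601 genes 2733 and 946, 1364 and 4289, and 1159 and 1160 were then called higher and lower. In neutrophils Syk stood at 84.6 ± 8.56 CPM against 82.0 ± 8.42 CPM in macrophages. Against monocytes, 11 were higher and 1 lower in neutrophils (53.0% of all genes called), and without TMM factors 1 and 10. The counts over all genes moved in the same direction, from 2024 higher and 2001 lower to 631 and 4813. In Camp-low neutrophils 8 of 17 were higher and 0 lower, with a median of 0.72 (all genes 0.0). Of all 4335 genes 22.8% and 19.9% were called in these directions, and without TMM factors 1348 and 521 genes were. Without these factors 12 of the listed genes were higher and 0 lower. Of these, and named after the values had been seen, Il1b was at 2760 ± 253 against 95.9 ± 21.2 CPM in Camp-high cells (log2 difference 4.56, SE 0.19, adjusted p = 2.26e-09).

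Of 14 other C-type lectin genes listed for comparison 11 had a row, and 6 were tested between the macrophage groups. In Ccr2-only cells 1 was higher and 1 lower (of all genes 5.17% and 3.85%). Without TMM factors the counts were 1 and 2, and 234 and 335 of all 6289 genes. Clec4b1, which encodes DCAR, another receptor of this family, was at 162 ± 17.9 CPM in Ccr2-only and 52.6 ± 10.3 CPM in Fcrls-only macrophages (log2 difference 1.75, SE 0.21, adjusted p = 2.8e-05, edgeR), the opposite direction from Clec4n. Clec10a, a galactose-type lectin, was at 19.4 ± 15.8 and 73.8 ± 6.25 CPM (-1.72, SE 0.44, adjusted p = 0.0172). Clec2d, Clec2i, Mgl2 and Clec5a were tested and not called (adjusted p from 0.0948 to 0.997). Clec9a, the lectin of type 1 DCs, had 91 UMIs in Xcr1 DCs (181 ± 58.7 CPM), Olr1 was found mainly in Camp-high neutrophils (69 UMIs, 20.7 ± 3.66 CPM), and Clec1a (36 UMIs in macrophages) and Clec4b2 (24 UMIs in neutrophils) were low throughout.

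Over 21 sums (7 groups of cells in 3 mice), the genes whose log2(CPM + 1) was most like that of a member among 5043 genes were described by Pearson's r. The points share the contrast of lymphocytes with myeloid cells, so r was high for many genes. Clec4n was nearest to Eps15 (r = 0.920), Abca9 (0.903) and Nrp1 (0.873), Clec4d to Pygl (0.911), Prdx5 (0.905) and Gsr (0.903), and Clec4e to C3 (0.916), AB124611 (0.911) and 1110008F13Rik (0.894). Clec4a1 was nearest to Ms4a6d (0.959), Grn (0.949) and Ifnar2 (0.948), and Clec4a3 to Fam234a (0.955), Ctsh (0.952) and Ms4a6c (0.951). Clec4a2 was nearest to Arl11 (0.965), Fcer1g (0.963) and Igsf6 (0.955), and Clec12a to Spi1 (0.973), Clec4a2 (0.951) and Arl11 (0.947). Between members r was 0.933 for Clec4a1 with Clec4a3 and 0.862 for Clec4d with Clec4e, and -0.106 for Clec4e with Clec4n.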

How the data were processed

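The deposited values are raw counts of UMIs that the authors made with Cell Ranger (3.1.0 in the matrix header) and filtered in Seurat, with mm10 named in the submitters' processing notes. Hashtag counts of 4395 barcodes were demultiplexed here with HTODemux (Seurat 5.3.0), and cells with over 200 and under 5000 genes and under 5% mitochondrial UMIs were kept, which gave from the male hashtags exactly the cells of the smaller deposited matrix. Mouse numbers 1 to 3 are male and 4 to 6 female hashtags. Positions are those of GENCODE M21.

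UMIs were summed per mouse and class (14 to 778 cells a sum) and tested in edgeR 4.0.16 (quasi-likelihood, TMM, filterByExpr, R 4.3.3), with DESeq2 1.42.0 as an alternative. The edgeR test itself gives no SE. Each SE was derived from its F statistic and from the coefficient before the slight shrinkage of the printed difference. Tested on simulated data for the macrophage groups, the fit recovered 83% of changes of 1 and 100% of changes of 2 (log2), with 3 false calls of 6545 genes. The changed genes were drawn from those with enough counts in the smallest sum, and all genes had the same simulated spread. The figures therefore do not cover genes as low as Clec4d and Clec4e in macrophages. Sums of the same number come from the same mouse, since the hashtag marks the animal (correlation of deviations 0.0546, 0.188 and 0.271 in the macrophage groups). Scrublet (scanpy 1.11.5) marked 12 cells (0.45%), under 0.5%, so doublets were in effect not removed. The members and lists were chosen with earlier results of these data known. The cut of 0.1% of UMIs for lymphocytes, DCs and monocytes was set after the marker levels, but no member's, had been seen. The genes named are the 8 members, listed signalling genes past the threshold between macrophage groups (1 is not reported here), other lectins with 20 UMIs in a sum, and the 3 most similar genes per member. Fcer1g, Syk, the neutrophil value of Il1b and the lectins listed as not called were added after their values were seen. Intervals and limits cover counting error only.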

Additional observations from a re-analysis of the deposited data

How the results depend on the processing

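For the members, 433 values under alternatives kept direction and side of the threshold, 10 lost the call, 8 gained it and 8 changed sign, none of the last a call. Changes of sign were Clec4e between macrophage groups without mouse 2 (-0.12 to 0.16 without 1 mouse), Clec4a1 and Clec4a3 in monocytes against macrophages without TMM (0.24 and 0.23) and without mouse 3 (-0.32 to 0.27 and -0.26 to 0.02 without 1 mouse), and in DCs Clec4d (-1.05 to 0.43) and Clec4e (-6.22 to 1.01) without mouse 3 and Clec4d in females (-1.69).

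Genes called between the macrophage groups were 567, with the replicate block 851, thinned 174, in females 311 and without 1 mouse 327 to 349, and without TMM 234 higher and 335 lower in place of 325 and 242. The block changed the call of 2 members there (Clec4a1 and Clec12a) and of no member elsewhere. Monocytes against macrophages gave 2960 genes, 1732 in females and 1801 to 2562 without 1 mouse, and 2733 higher and 946 lower without TMM (1431 and 1529 with it). Neutrophils against macrophages gave 5075, 2955 in females, and 1364 higher and 4289 lower without TMM (2416 and 2659 with it). DCs against macrophages gave 2334, 1419 in females and 1512 to 2022 without 1 mouse. Neutrophils against monocytes gave 4025, 2271 in females and 2655 to 3869 without 1 mouse, and 631 higher and 4813 lower without TMM (2024 and 2001 with it). Camp-low against Camp-high neutrophils, with all alternatives chosen after the data were seen, gave 1850, 380 in females and 1202 to 1605 without 1 mouse (1202 without mouse 3), and 1348 higher and 521 lower without TMM (989 and 861 with it). Female sums are shallower and fewer genes passed their filter. The cause of the shifts, those in females included, was not tested. In female mice Clec4a1 was lower in monocytes (-1.0, adjusted p = 0.0317 by edgeR, in a range to 0.994, from 41 monocytes) and Clec12a lower in DCs (-0.80, adjusted p = 0.0169, in a range to 0.968). With 3 mice a group, few cells and few UMIs of Clec4d and Clec4e in macrophages and DCs limit what could be seen there.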
